A study of Homo sapiens with 12 samples.

Results

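The response of melanoma cells to wild-type (WT) TYRO3 was described by setting the 3 libraries of cells transfected with WT TYRO3 against the 3 libraries of cells transfected with GFP. These are 6 of the 12 libraries of the study, and they were chosen by their sample labels alone. Both groups were WM-266-4 cells, a human melanoma cell line, and both carried a stable lentiviral knock-down of TYRO3. They were kept in puromycin, transfected with jetPRIME with either pEZY-myc-his GFP or the plasmid for WT TYRO3, and serum starved overnight before the RNA was taken. The study's methods describe the control as an empty plasmid, whereas the labels name GFP, and it is called GFP here. Each of the 3 experiments gave 1 library per group, and the other 6 libraries, of cells with the variants ΔGS, which resists γ-secretase, and ΔADAM, which resists ADAM sheddases, entered the fit to estimate the spread. All values come from 1 cell line. The p-values measure the spread between libraries of that line that is left once shifts shared by a whole experiment are removed. This spread is pooled over all 4 groups, the variants included.

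TYRO3 belongs with AXL and MERTK to the TAM family of receptor tyrosine kinases, which bind the ligands GAS6 and protein S. The family is best known for restraining the response of immune cells to pathogens and for promoting survival and invasion in cancers such as melanoma. Like several receptors of its kind, TYRO3 can be cut by sheddases of the ADAM family and then by γ-secretase, which releases its intracellular domain. Both of these cuts are open to the WT protein.

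The GFP libraries held between 4008293 and 38184838 estimated counts and the WT TYRO3 libraries between 18365999 and 23117903. The GFP library of experiment 1 stood apart, since it had the lowest total of all 12 libraries and the highest share of mitochondrial counts of the 6, 8.46% against 4.50 to 6.94% in the other 5. The counts of calls are therefore also given without it. As a check of the cell type, the 9 melanocyte markers were all detected, with a summed level of 2261 to 2710 CPM (counts scaled to a common library total) with GFP and 1355 to 2585 with WT TYRO3. The 10 leukocyte markers summed to 33.0 to 34.8 CPM with GFP and 34.7 to 38.5 with WT TYRO3, nearly all of it from CD68, and 8 of the 10 averaged under 1 CPM. The 8 keratinocyte markers summed to 37.5 to 50.9 CPM with GFP and 36.6 to 42.0 with WT TYRO3, nearly all of it from KRT10, and KRT5, KRT1 and KRT6A were at 0 in all 6 libraries. The 6 endothelial markers summed to 11.3 to 18.4 CPM with GFP and 15.2 to 33.9 with WT TYRO3, most of it from KDR.

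TYRO3 (ENSG00000092445, chromosome 15 from 41557675 to 41583586 in GRCh38) was measured first, since it checks the labels. Its level was 53.1, 47.3 and 56.6 CPM in the GFP libraries of experiments 1 to 3, and 3064, 1791 and 1369 CPM in the WT TYRO3 libraries. All 3 transfected libraries lay far above all 3 controls, and the experiments differed in how much TYRO3 the cells held. The log2 fold change was 5.14 (SE 0.27, n = 3 per group, adjusted p = 1.51e-05, quasi-likelihood test of edgeR with Benjamini-Hochberg adjustment). Reads of the plasmid and of the cells' own gene fall on the same transcripts and cannot be told apart. Here and below, CPM are scaled by the library sizes normalized with TMM, and a log2 fold change is that of WT TYRO3 over GFP.

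Across the 15098 genes tested, 251 were called higher and 104 lower with WT TYRO3, where a gene was called if edgeR's quasi-likelihood test gave an adjusted p no higher than 0.05 and the levels differed by more than 1.5 times. These are 1.66% and 0.689% of the genes tested. Of the 355 genes called, 347 were protein coding, and 354 differed in the same direction in each of the 3 experiments. The exception was AC025283.2, named after its values were seen, which had no count in the WT TYRO3 libraries or in the GFP library of experiment 1. The calls rest both on the term for the experiment and on the variant libraries in the fit. Without the term for the experiment the fit called 3 genes. With the 6 libraries of GFP and WT TYRO3 alone and the term in place it called 30. The count was 148 without the GFP library of experiment 1, 79 without the WT TYRO3 library of either experiment 1 or experiment 2, 606 without that of experiment 3, and 220 without the ΔADAM library of experiment 1. In experiments 2 and 3 alone 47 genes were called, all of them higher, so that no fall passed the test there. Of the 64 called genes that the naming rule picked, 27 stayed called whichever of the 12 libraries was left out, among them TYRO3, OAS1, OAS2, OAS3, IRF1, TLR3, TAP1, TAP2, ASNS, PSAT1, GARS and THBS1. None of the 19 named genes that were called lower was among the 27. Of the 64, 32 lost their call without the WT TYRO3 library of experiment 1, 36 without that of experiment 2 and 13 without the GFP library of experiment 1.

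**Figure D1:**
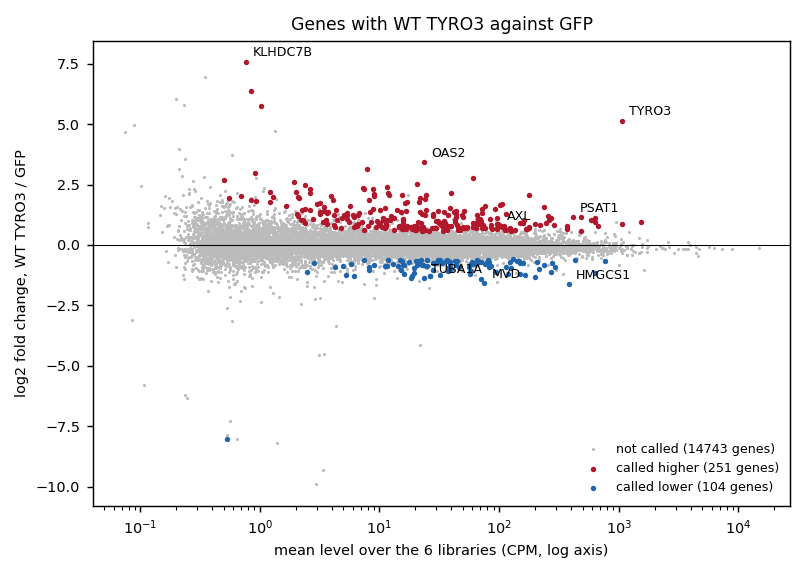
Each point is 1 of the 15098 genes tested, with its mean level over the 6 libraries in CPM on a log axis (horizontal) and its log2 fold change of WT TYRO3 over GFP (vertical). The 251 genes called higher (red) and the 104 called lower (blue) lie on both sides of a cloud of uncalled genes (grey) around 0, and TYRO3 stands alone at a high level with a log2 fold change of 5.14.

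The protein-coding genes with the largest rises were led by genes that GFP cells hardly expressed. KLHDC7B, which encodes a protein with kelch repeats, had no count in the GFP libraries and 87 counts over the WT TYRO3 libraries, which makes it at least 30.6-fold higher when the GFP group is given a floor of 3 counts. XIRP1, an actin-binding protein of striated muscle, had 1 count with GFP and 96 with WT TYRO3, a ratio per library total of 101.3 with a 95% counting interval of 17.8 to 4041. CXCL9, a chemokine that draws T cells, had 2 and 115 counts, a ratio of 60.7 with an interval of 16.4 to 506.8. These intervals and floors cover counting error only. Next came TYRO3 itself and 6 genes known to be induced by interferon, namely OAS2, OAS1, OAS3, EPSTI1, IFI44L and XAF1. TM6SF1 and S100P, a calcium-binding protein, completed the 12, each with 6 counts in all with GFP, and S100P was called in 2 of the 12 fits that leave out 1 library.

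Among the gene lists, that of the interferon-stimulated effectors held the most genes called higher. The lists here and below were chosen with earlier results of these data known. Their shares beside those of all genes are descriptions and not tests. Interferons act through JAK kinases and factors that include STAT2 and IRF9, which bind a short element in the promoters of antiviral genes. Of 44 interferon-stimulated effectors, 32 were called higher and none lower, against 1.66% of all genes tested, and their median log2 fold change was 1.35 against -0.0025 over all genes tested. The fold change was above 0 for all 44. The WT TYRO3 libraries lay wholly above the GFP libraries for 31 of the 44, as they did for 10.0% of all genes tested. In bulk RNA, a response of more cells and more RNA in each responding cell cannot be told apart.

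OAS2 (chromosome 12 from 112978395 to 113011723), one of the synthetases whose product activates RNase L against viral RNA, was measured at 0.526, 7.68 and 1.87 CPM with GFP and at 30.1, 89.8 and 12.7 CPM with WT TYRO3. Both groups were highest in experiment 2, and the groups did not overlap. Its log2 fold change was 3.43 (SE 0.26, adjusted p = 0.000274). Its neighbour OAS1 rose by 3.16 on the log2 scale (SE 0.29, adjusted p = 0.000955), from 0, 2.94 and 0.859 CPM to 10.9, 27.5 and 4.71 CPM. OAS3 rose from 3.68, 28.6 and 6.67 CPM to 104, 188 and 31.6 CPM. For all 3 synthetases the highest control, in experiment 2, lay below the lowest WT TYRO3 library, in experiment 3. IFIT5, which binds viral RNA, went from 12.9, 35.2 and 20.7 CPM to 46.6, 100.2 and 45.4 CPM, a log2 fold change of 1.41 (SE 0.15, adjusted p = 0.00208). RSAD2, which encodes the antiviral enzyme viperin, was at 1.05, 4.04 and 1.47 CPM with GFP and at 8.90, 24.0 and 4.66 CPM with WT TYRO3 (log2 fold change 2.35, SE 0.25, adjusted p = 0.00208). The 12 effectors that did not pass included MX2 at 0.18 and IFITM2 at 0.21, whereas MX1 was called at 2.05. The count of 32 was 27 without the GFP library of experiment 1, 20 without the WT TYRO3 library of experiment 2, 17 in experiments 2 and 3 alone and 0 without the term for the experiment. With at least 10 counts required in every library, which leaves fewer genes to test, it was 20. The list's median of 1.35 was then 0.885.

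The promoters of these genes were searched for the letters GAAANNGAA on both strands, the core of the interferon-stimulated response element, a motif chosen after the values were seen. The RefSeq windows (GRCh38.p14) run from 250 bases before to 50 after the start of each gene, and 35 of the 44 effectors matched one by symbol. The letters were found in 23 of these 35 (65.7%), in 23.8% of the windows of genes called higher, in 4.76% of those of genes called lower and in 8.29% of all 27305 windows. A match is only a description of these letters. The stretches around the match nearest the start are shown for 3 called effectors of small adjusted p that hold one before the start. Not every chromosome was included when these 3 were picked. The stretches show what the shared letters look like, with the match in capitals and up to 20 bases on each side.
IFIT5 (chr10:89414530-89414567, plus strand): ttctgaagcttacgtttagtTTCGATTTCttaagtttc
RSAD2 (chr2:6865786-6865834, plus strand): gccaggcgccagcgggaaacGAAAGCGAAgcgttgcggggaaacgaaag
OAS3 (chr12:112938442-112938473, plus strand): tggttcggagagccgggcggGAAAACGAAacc
The match begins 18, 79 and 12 bases before the start of IFIT5, RSAD2 and OAS3, and in IFIT5 it reads on the opposite strand.

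Among 26 genes tested of nucleic acid sensing and interferon signaling, 9 were called higher and none lower, against 1.66% of all genes tested called higher. The median log2 fold change of the 26 was 0.41. The sensors that rose were TLR3, which detects double-stranded RNA in endosomes, and the cytosolic RNA sensors DDX58 (RIG-I), IFIH1 (MDA5) and DHX58. TLR3 went from 2.37, 3.67 and 2.22 CPM with GFP to 9.39, 9.78 and 6.84 CPM with WT TYRO3 (log2 fold change 1.62, SE 0.17, adjusted p = 0.00208). DDX58 rose from 43.7, 83.5 and 48.0 CPM to 98.1, 208 and 90.5 CPM. Of the factors downstream, IRF1 went from 8.15, 10.8 and 7.08 CPM to 31.2, 27.4 and 15.9 CPM, a log2 fold change of 1.40 (SE 0.13, adjusted p = 0.00105), with no overlap of the groups. STAT2 and IRF9 were called as well, at 0.61 and 0.73. The adaptors and kinases above them gave values near 0, such as TMEM173 (STING) at 0.12, TBK1 at 0.08 and IRF3 at 0.05, and so did the receptor chains IFNAR1 and IFNAR2 at 0.03 and -0.03. IFNB1, which encodes interferon β, was at 0, 0.162 and 0.202 CPM with GFP and at 0.165, 0.884 and 0.222 CPM with WT TYRO3. These IFNB1 levels overlap, and the log2 fold change of 1.59 (SE 0.64, adjusted p = 0.179) did not pass. The count of 9 was 5 without the GFP library of experiment 1 and 3 without the GFP library of experiment 2 or the WT TYRO3 library of experiment 1 or experiment 2.

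Antigen presentation by MHC class I, which interferon is known to induce, followed the same direction. Of 16 genes, 6 were called higher and none lower, against 1.66% of all genes tested called higher. The fold change was above 0 for all 16 and the median was 0.67. TAP2, which with TAP1 carries peptides into the endoplasmic reticulum, had the smallest error, with 50.2, 46.8 and 42.0 CPM with GFP and 111, 99.97 and 71.5 CPM with WT TYRO3 (log2 fold change 1.00, SE 0.08, adjusted p = 0.000568). TAP1 went from 7.36, 13.5 and 13.6 CPM to 29.4, 42.7 and 23.4 CPM, and NLRC5, the transcriptional activator of these genes, from 4.73, 10.8 and 5.61 to 16.4, 33.2 and 12.8 CPM. CD274, which encodes the checkpoint ligand PD-L1, rose from 1.58, 2.24 and 1.57 CPM to 7.80, 6.41 and 2.71 CPM (log2 fold change 1.38, SE 0.22, adjusted p = 0.0113). Of the heavy chains HLA-B was called, at 1.90, while HLA-C and the light chain B2M both gave 0.39. Reads of HLA genes and their near copies may be split between them, so the single chains are uncertain. The count was 5 without the GFP library of experiment 1 and 3 without the WT TYRO3 library of experiment 1 or of experiment 2. The median of 0.67 was 0.45 without the GFP library of experiment 2 and 0.39 without the WT TYRO3 library of experiment 2.

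NF-κB is a factor that drives inflammatory genes. The median of 29 of its targets and of cytokines and chemokines was 0.63. Of these 29, 9 were called higher and none lower, against 1.66% of all genes tested called higher. They included the chemokines CXCL11, CXCL10, CXCL8 and CXCL1, the cytokines IL1B and IL6, and BIRC3, an inhibitor of apoptosis. CXCL11 went from 3.68, 2.83 and 2.88 CPM to 20.1, 17.4 and 7.50 CPM (log2 fold change 2.10, SE 0.26, adjusted p = 0.00365). IL6 went from 1.05, 1.48 and 1.47 CPM to 11.0, 5.69 and 3.60 CPM, a log2 fold change of 1.86 (SE 0.29, adjusted p = 0.0103). For both, experiment 1 gave the highest WT TYRO3 value and experiment 3 the lowest, and the groups stayed apart. IL1B was the one of the 4 leading members whose groups overlapped, at 3.42, 7.42 and 3.94 CPM against 25.7, 19.8 and 7.01 CPM. NFKB1, TNFAIP3 and ICAM1 gave 0.10, 0.06 and 0.19 and did not pass. The count of 9 was 7 without the GFP library of experiment 1, 3 without the WT TYRO3 library of experiment 1 and 1 without that of experiment 2.

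**Figure D2:**
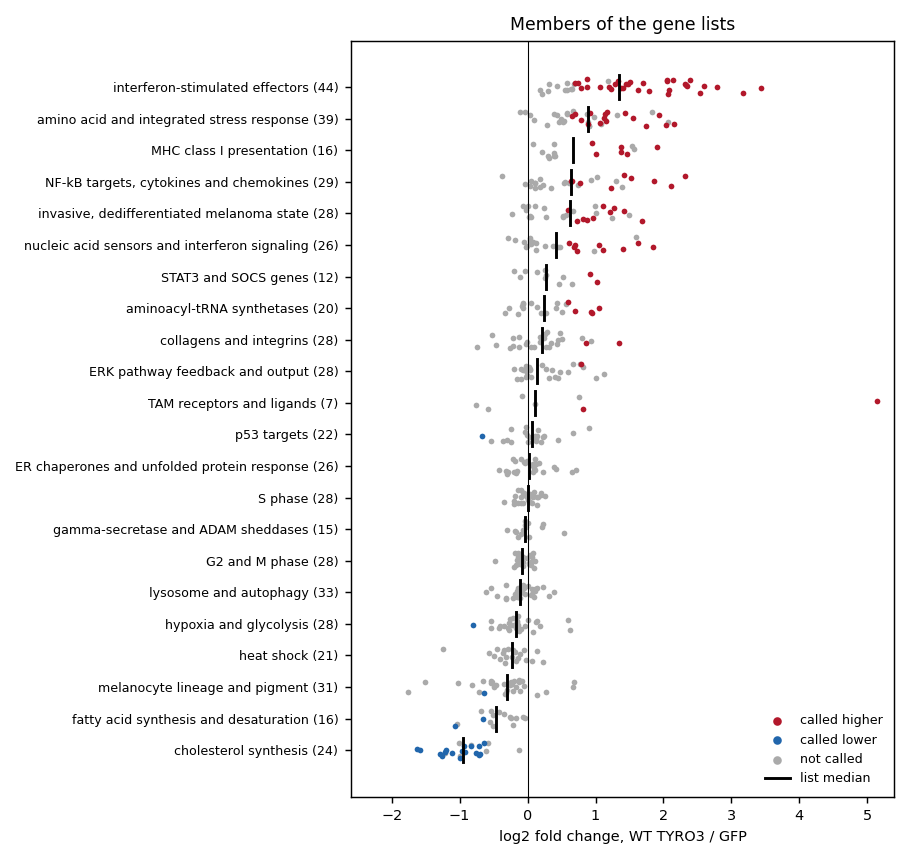
Each point is 1 tested gene of a gene list, placed by its log2 fold change of WT TYRO3 over GFP, with the number tested in brackets and the list's median as a black bar. Red points were called higher, blue points lower and grey points did not pass. The interferon-stimulated effectors have the highest median (1.35), the cholesterol genes the lowest (-0.95).

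The second group that rose belongs to the amino acid response. When amino acids run short or the integrated stress response is active, ATF4 induces genes of amino acid synthesis and uptake and the enzymes that load tRNA. Of 39 such genes, 16 were called higher and none lower, against 1.66% of all genes tested called higher, with a median of 0.89, and 37 of the 39 had a fold change above 0. The enzymes of serine synthesis PHGDH, PSAT1 and PSPH were all called. PSAT1 went from 215, 203 and 357 CPM to 612, 405 and 688 CPM (log2 fold change 1.15, SE 0.11, adjusted p = 0.000955). ASNS (chromosome 7 from 97852118 to 97872542), the asparagine synthetase, went from 87.3, 93.2 and 192 CPM to 419.6, 254 and 387 CPM, a log2 fold change of 1.55 (SE 0.17, adjusted p = 0.00246). PCK2, the mitochondrial phosphoenolpyruvate carboxykinase, went from 21.0, 22.6 and 36.2 CPM to 64.4, 46.4 and 70.8 CPM. For these 3 genes the lowest WT TYRO3 library was that of experiment 2, and it still lay above the highest control, that of experiment 3. The transporters SLC7A11, SLC1A5, SLC6A9 and SLC7A1 were called too, at 1.14, 0.79, 1.74 and 0.65. ATF4 itself was at 246, 211 and 282 CPM with GFP and 499, 254 and 453 CPM with WT TYRO3, and its log2 fold change of 0.67 (SE 0.21, adjusted p = 0.0999) did not pass. Nor did DDIT3 at 0.43 or TRIB3 at 0.98, the members tied to cell death.

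Of 20 cytosolic aminoacyl-tRNA synthetases, 5 were called higher and none lower, against 1.66% of all genes tested called higher. The 5 were GARS, CARS, SARS, WARS and EPRS. GARS, which loads glycine, went from 316, 324 and 508 CPM to 912, 561 and 899.5 CPM (log2 fold change 1.05, SE 0.13, adjusted p = 0.00365). WARS, which loads tryptophan and is also induced by interferon, rose from 706, 1144 and 1320 CPM to 2176, 1978 and 1879 CPM. The group's median was 0.24, and QARS and VARS gave -0.27 and -0.33. Of 26 endoplasmic reticulum chaperones and genes of the unfolded protein response none was called, with a median of 0.02. Over all genes tested 1.66% were called higher and 0.689% lower, so a list of this size can hold no call. The members with the smallest p, CALR and XBP1, gave -0.42 (adjusted p = 0.0379, under the fold of 1.5) and 0.72 (adjusted p = 0.0599). The letters TGATGNAA, the core of the element that ATF4 binds with C/EBP factors, were found on either strand in 5 of the 32 promoter windows of the amino acid list (15.6%) and in 3.67% of all windows. ASNS is shown because it was the only called member of the list, among those considered, with a match before the RefSeq start. Not every chromosome was included when the printed stretch was picked.
ASNS (chr7:97872449-97872496, minus strand): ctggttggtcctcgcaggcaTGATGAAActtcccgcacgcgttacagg
Here the match begins 68 bases before the RefSeq start of ASNS. The stretch lies within the GENCODE span of the gene given above, since the sources place the start differently. The 16 calls of the amino acid list were 9 without the GFP library of either experiment 1 or experiment 3, and 10 without the WT TYRO3 library of experiment 1. The list's median of 0.89 was 0.53 without that WT TYRO3 library and 0.48 in experiments 2 and 3 alone. The 5 calls of the synthetases were 2 without that WT TYRO3 library and 4 without the GFP library of experiment 1.

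The genes of cholesterol synthesis fell as a group. Cells make cholesterol from acetyl-CoA through the mevalonate pathway, whose genes are induced together by SREBP2 when sterols are low. Of 24 genes tested, 17 were called lower and none higher, against 0.689% of all genes tested, with a median log2 fold change of -0.95. No member had a fold change above 0, and for 23 of the 24 the WT TYRO3 libraries lay wholly below the GFP libraries, as they did for 10.8% of all genes. HMGCS1 (chromosome 5 from 43289395 to 43313512), the HMG-CoA synthase, had the largest fall among the protein-coding genes that were called with the same sign in all experiments, from 506, 647 and 538 CPM with GFP to 82.8, 238 and 297 CPM with WT TYRO3. Its level fell by 1.63 on the log2 scale (SE 0.28, adjusted p = 0.0144). MVD, a later enzyme of the mevalonate pathway, went from 98.4, 119 and 112 CPM to 17.2, 48.5 and 55.2 CPM. HSD17B7 went from 37.9, 38.1 and 35.7 CPM to 8.46, 18.6 and 19.2 CPM. For all 3 genes the WT TYRO3 library of experiment 1 was the lowest, and the groups did not overlap. The letters TCACNCCAC, the core of the sterol regulatory element, searched in the same way, were found in 1 of the 18 promoter windows of these genes that matched by symbol and in 1.15% of all windows.

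The fall ran through the pathway. FDPS was called at -0.83, the squalene epoxidase SQLE at -0.97, LSS at -1.26 and the late enzyme DHCR7 at -1.20. SC5D had the smallest adjusted p, with 84.9, 92.6 and 84.6 CPM against 43.2, 58.5 and 60.1 CPM (log2 fold change -0.70, SE 0.10, adjusted p = 0.00728). Of the regulators, SREBF2 gave -0.61 (adjusted p = 0.0706) and INSIG1 -1.21 (adjusted p = 0.0513), and neither was called. PMVK had the smallest difference, -0.13. Fatty acid genes, which SREBP1 governs, had a median of -0.46 and no member above 0. Of 16 tested, 2 were called lower, against 0.689% of all genes tested. These were ACSS2, from 32.9, 71.7 and 49.3 CPM to 13.6, 29.1 and 29.5 CPM, and ACLY, which makes the acetyl-CoA that both pathways use, from 776, 1033 and 972 CPM to 398, 673 and 724 CPM. The count of 17 cholesterol genes was 8 without the GFP library of experiment 1 and 11 without the ΔADAM library of experiment 1. It was 0 without the WT TYRO3 library of experiment 1 or 2, and in experiments 2 and 3 alone. The list's median of -0.95 was -0.61 without the GFP library of experiment 1 and -0.56 in experiments 2 and 3 alone. The count of 2 fatty acid genes was 1 without the GFP library of experiment 1, 4 without that of experiment 2, 0 without the WT TYRO3 library of experiment 1 or 2 and 6 without that of experiment 3, and their median of -0.46 was -0.29 in experiments 2 and 3 alone.

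**Figure D3:**
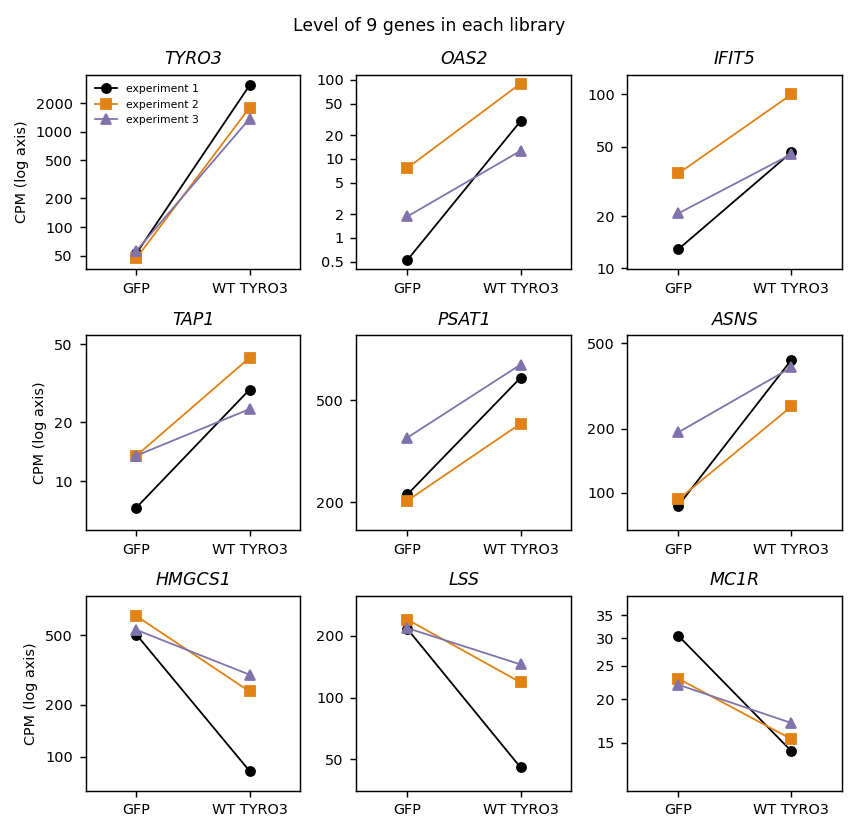
The level of 9 genes in CPM (log axes) in the GFP and WT TYRO3 libraries, with a line for each experiment. TYRO3, OAS2, IFIT5, TAP1, PSAT1 and ASNS are higher and HMGCS1, LSS and MC1R lower with WT TYRO3 in every experiment, and HMGCS1 is lowest, at 82.8 CPM, in experiment 1.

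Apart from the sterol enzymes, the largest falls included genes of differing roles. TUBA1A, an α-tubulin, went from 25.8, 43.3 and 32.0 CPM to 6.48, 15.4 and 17.8 CPM, though reads of near-identical tubulin genes may be split (log2 fold change -1.37, SE 0.20, adjusted p = 0.00675). CEACAM1, an adhesion molecule of melanoma and immune cells, fell from 237, 337 and 267 CPM to 46.1, 153 and 166 CPM. ST8SIA1, the synthase of the ganglioside GD3, went from 25.8, 28.8 and 24.3 CPM to 4.23, 13.1 and 16.2 CPM. SESN3, a sestrin, had 27.4, 45.4 and 38.7 CPM with GFP and 6.76, 16.2 and 24.8 CPM with WT TYRO3. In each of these 4 genes the groups did not overlap. The 12 largest falls also held ZNF114, FGFBP3, PALM3 and GALNT3, with log2 fold changes of -1.41, -1.35, -1.28 and -1.26, and the groups overlapped for FGFBP3 and PALM3. CEACAM1 and ST8SIA1 were called in 5 of the 12 fits that leave out 1 library.

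Within the TAM family, AXL was called higher and MERTK gave a value in the other direction. AXL went from 86.5, 68.8 and 55.1 CPM to 194, 129.7 and 70.0 CPM, higher in each experiment though the groups overlap (log2 fold change 0.81, SE 0.15, adjusted p = 0.0218). It was not called without the GFP library of experiment 1 or the WT TYRO3 library of experiment 1 or 2. MERTK was at 19.5, 18.8 and 22.0 CPM with GFP and at 6.59, 12.3 and 17.1 CPM with WT TYRO3, a log2 fold change of -0.76 that did not pass (SE 0.20, adjusted p = 0.0622). The ligand genes GAS6 and PROS1 gave 0.76 and 0.10 and did not pass. In melanoma, high AXL and low MITF mark a dedifferentiated, invasive state. Of 28 genes of that state 10 were called higher and none lower, against 1.66% of all genes tested called higher. The median of the 28 was 0.63. THBS1, which encodes thrombospondin, went from 622, 260.0 and 318 CPM to 1421, 626 and 578 CPM, AJUBA from 23.1, 24.4 and 24.3 CPM to 87.0, 46.9 and 55.5 CPM, and INHBA, a subunit of activin, from 1.58, 1.21 and 0.758 CPM to 8.62, 4.75 and 1.24 CPM. CTGF, CYR61 and the nerve growth factor receptor NGFR were among the other called members. FN1, TNC, CDH2 and ZEB1, further members, gave 0.11, -0.03, 0.01 and 0.25. The count of 10 was 6 without the GFP library of experiment 1, 3 without the WT TYRO3 library of experiment 1 and 1 without that of experiment 2.

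Melanocyte genes gave mostly negative values, of which 1 passed. Of 31 lineage and pigment genes, 27 had a fold change below 0, with a median of -0.31. MC1R, the receptor for melanocyte-stimulating hormone, was the 1 called lower, against 0.689% of all genes tested. MC1R went from 30.5, 22.9 and 22.0 CPM to 14.2, 15.4 and 17.1 CPM (log2 fold change -0.65, SE 0.14, adjusted p = 0.0387). MITF, the lineage's master regulator, was at 306, 306 and 337 CPM with GFP and 94.97, 230.3 and 254 CPM with WT TYRO3. The MITF groups did not overlap, but with a log2 fold change of -0.81 (SE 0.22, adjusted p = 0.0671) the gene did not pass. SOX10, PMEL and MLANA gave -0.21, -0.31 and -0.53. MC1R was called in 3 of the 12 fits that leave out 1 library, and the calls of the list numbered 0 without the GFP library of experiment 1 and 5 without the WT TYRO3 library of experiment 3. The list's median of -0.31 was -0.20 without the GFP library of experiment 1.

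Of 28 genes of ERK pathway output 1 was called higher, against 1.66% of all genes tested. This was CCND1, which encodes cyclin D1, from 534, 476 and 444 CPM to 1124, 777 and 664 CPM (log2 fold change 0.79, SE 0.12, adjusted p = 0.00839). The count of 1 was 1 without the GFP library of experiment 1, 0 without the WT TYRO3 library of experiment 1 or 2, 7 without that of experiment 3 and 6 by DESeq2. Of 12 STAT3 and SOCS genes, 2 were called higher and none lower, against 1.66% of all genes tested called higher, and their median was 0.265. These 2 were SERPINA3 at 1.02 and SOCS3, the feedback inhibitor of cytokine signaling, at 0.92. STAT3 itself gave -0.12 with a 95% interval of -0.31 to 0.08. SOCS3 lost its call without the WT TYRO3 library of experiment 1 or 2, which left 1 call in the list, and the list had 4 without that of experiment 3 and 2 without the GFP library of experiment 1. ITGA2 and COL6A3 were called higher among 28 collagens and integrins, against 1.66% of all genes tested. CCNG1 was called lower among 22 p53 targets and ALDOC lower among 28 genes of hypoxia and glycolysis, against 0.689% of all genes tested. Of 28 S phase, 28 G2 and M phase, 21 heat shock and 33 lysosome and autophagy genes none was called, with medians between -0.23 and 0.0008. Over all genes tested 1.66% were called higher and 0.689% lower, and at these shares a list of this size can hold no call. The heat shock genes had the lowest of these medians, and 3 of the 21 had a fold change above 0, against 49.5% of all genes tested. For 7 of the 21 the WT TYRO3 libraries lay wholly below the GFP libraries, as they did for 10.8% of all genes tested. The 15 γ-secretase subunits, ADAM sheddases and their inhibitors, which include the proteins that cut TYRO3, had no call either, and a median of -0.04. ADAM10 gave -0.03, ADAM17 0.22 and the γ-secretase subunit APH1A -0.14. ADAM8 had the highest value, 0.54, which did not pass, though it was called at 1.10 with thinned counts. The fold change was above 0 for 5 of the 15. For 3 of the 15 the WT TYRO3 libraries lay wholly above the GFP libraries, as they did for 10.0% of all genes tested. Among markers of other cell types KDR, a receptor for VEGF, was called higher at 0.77, with 15.2, 16.2 and 10.4 CPM against 31.8, 30.3 and 13.9 CPM. It was the 1 called of 3 endothelial markers tested, against 1.66% of all genes tested. The 3 ran from -0.39 to 0.77, with a median of 0.11. PECAM1 averaged 1.1 CPM, and CDH5, VWF, TEK and CLDN5 averaged under 1 CPM. ITGA2, COL6A3, CCNG1, ALDOC and KDR were called in 3 to 8 of the 12 fits that leave out 1 library, and without the GFP library of experiment 1 only COL6A3 of these 5 was called.

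The size of the difference varied between experiments along with the level of TYRO3, which was 3064 CPM in experiment 1, 1791 CPM in experiment 2 and 1369 CPM in experiment 3. The median log2 difference of the interferon-stimulated effectors was 1.67, 1.49 and 1.08 in experiments 1 to 3, and that of the MHC class I genes 1.05, 0.77 and 0.15. The cholesterol genes had medians of -1.80, -0.68 and -0.48, while the amino acid genes had 1.51, 0.40 and 0.66, so that here experiment 2 was the lowest. Over all genes tested the medians were 0.02, -0.01 and -0.01. Experiment 1 also holds the shallow GFP library, and with 3 experiments the order was not tested.

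**Figure D4:**
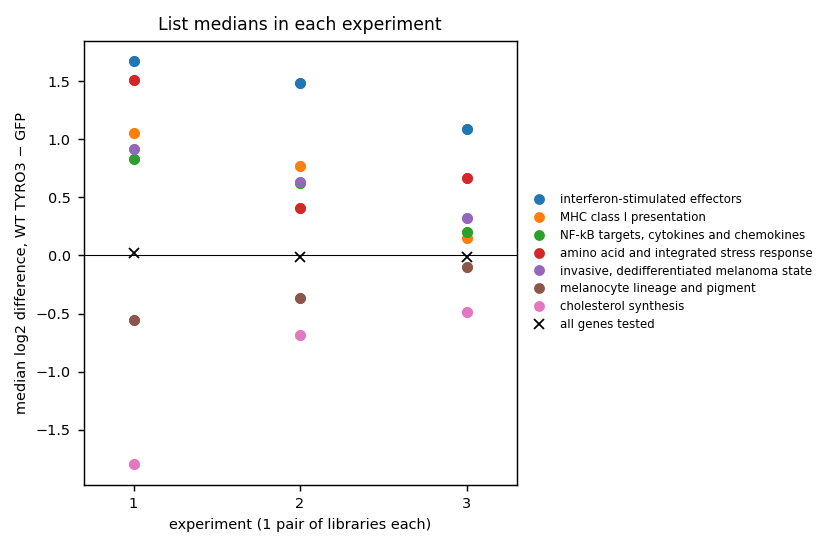
The median log2 difference between the WT TYRO3 and the GFP library of each experiment, for 7 gene lists (coloured points) and for all genes tested (black crosses). The medians of all genes lie close to 0 in every experiment, the cholesterol genes are lowest in experiment 1, at -1.80, and the interferon-stimulated effectors stay above 1 in all 3.

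To see whether any of this was particular to WT TYRO3, its libraries were set against the mean of the ΔGS and ΔADAM variants in the same fit. No gene was called (0% of those tested), with 237 genes at an unadjusted p under 0.05, while DESeq2 called 5 and edgeR with no filter on low counts called 2. Of the 355 genes called against GFP, 7 had an unadjusted p under 0.05 in this comparison. For 96 of the 355 the difference from the variants had the same sign as that from GFP. For most of the 355 the mean of the variants therefore lay further from GFP than WT TYRO3 did. For the interferon-stimulated effectors the median difference from the variants was -0.09, for the amino acid genes -0.15 and for the cholesterol genes -0.05, each on the log2 scale. These medians are descriptions, and the gene groups themselves were not tested against the variants. In this fit no single member of them was called with 3 libraries per group. That does not show that WT TYRO3 and the variants act alike.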

How the data were processed

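PolyA RNA of WM-266-4 cells was sequenced in 12 libraries, of which the 3 with GFP and the 3 with WT TYRO3 are compared here. The authors trimmed the reads with Trimmomatic 0.33 and deposited the estimated counts that kallisto 0.46.0 gave for each of 188753 transcripts of GRCh38. The TPM values that the authors deposited come from the same kallisto run and were used for 1 alternative only. The batch correction of the study is not in these values.

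The samples were grouped by their labels, and libraries of the same experiment were paired by the experiment number in their titles, which marks a shared experiment. The deviations of the paired GFP and WT TYRO3 libraries from their group means correlated at 0.07, 0.15 and 0.25 in experiments 1 to 3. Over all pairs of libraries within an experiment, the variants included, the correlations ran from 0.04 to 0.53, from 0.15 to 0.44 and from 0.17 to 0.48. The GFP and WT TYRO3 pair thus lay at or toward the low end of each range, and was the lowest in experiment 2. Transcripts were joined without version to GENCODE 29, which placed 169797 of them with at least 97.4% of the counts of each library. Counts were summed per gene and rounded, and filterByExpr, set to 10 for the count and 15 for the total of a gene, left 15098 genes. Libraries were normalized by TMM. Differences were tested in R 4.3.3 by quasi-likelihood with edgeR 4.0.16, with the 4 groups and the 3 experiments as terms over all 12 libraries, and p-values were adjusted by Benjamini and Hochberg over all genes. The common coefficient of variation between libraries was 11.4%. Per-experiment log2 differences used a prior count of 2. The scripts were tested on simulated data. The strand setting of the authors' counting is not given in the sources used here, so overlapping genes may share reads.

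Named were TYRO3, the 12 protein-coding genes with the largest rise and the 12 with the largest fall among called genes of 1 direction in all experiments, and up to 4 called members of each gene list each way by adjusted p, or the 2 with the smallest p where none was called. Other members are named to describe their list. The members and the lists were chosen with earlier results of these data known. Alternatives were RLE size factors, DESeq2 1.42.0, limma 3.58.1 on log2 TPM with a pseudocount of 1, other filters, models and sets of libraries, thinned counts, transcripts, and each library left out in turn. Motif searches and figures used Python 3.11.15 with pandas 2.3.3 and matplotlib 3.10.9. Some genes of the lists are counted in them but not reported by name here.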

Additional observations from a re-analysis of the deposited data

How the results depend on the processing

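The 251 higher and 104 lower calls (355 in all) depended on how the experiments entered the model. With no replicate block 3 genes were called, 3 higher and 0 lower, with a term for experiment 1 against the others 6 (6 and 0), with only the 6 libraries and the replicate block 30 (28 and 2), with the 6 and no block, a fit chosen after seeing the data, 1 (1 and 0), and in experiments 2 and 3 alone 47 (47 and 0). DESeq2 called 610 (380 and 230), edgeR with no filter 577 (357 and 220), no threshold on the fold change gave 541 (324 and 217), limma on log2 TPM 228 (179 and 49) and the test per transcript 6 (6 and 0), namely 5 transcripts of TYRO3 and 1 of APOL6. With 1 library left out the count ranged from 79 to 606, the higher calls from 77 to 349 and the lower calls from 1 to 257, and 97.5% and 98.7% of calls were higher without the WT TYRO3 library of experiment 1 or 2, against 70.7% with all. RLE size factors, at least 10 counts in every library and thinned counts stayed within 1.5 times of the total, and each of the 355 genes that an alternative tested by gene kept its direction. The log2 fold change of TYRO3 ranged from 4.86 to 5.42 with 1 library left out and was called each time. Against the variants, DESeq2 called 5 genes and edgeR with no filter 2, and all other alternatives 0. Of the named genes, only KRT10 changed sign, from -0.17 to 0.0034 without the GFP library of experiment 1 (-0.30 without that of experiment 3), and it was never called. The causes were not tested. The GFP library with 4008293 counts limits what can be seen for genes under about 1 CPM, such as IFNB1 at 0 there.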

Other observations

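Some called genes outside the lists are given here, chosen after their values were seen, so that their direction is fixed by the choice and no group of genes was tested. SRXN1 and TXNRD1, enzymes that act against oxidants, were called higher by edgeR's quasi-likelihood test, TXNRD1 at 0.86. SRXN1 went from 123, 129 and 190.3 CPM with GFP to 556, 208 and 343 CPM with WT TYRO3, a log2 fold change of 1.19 (SE 0.24, adjusted p = 0.0257), and experiment 1 held the highest value. PLAU, the protease that frees plasmin, its receptor PLAUR and the inhibitor SERPINB2 were called higher at 1.00, 0.90 and 1.77, and the laminin chains LAMB3 and LAMA3 at 1.38 and 0.89. Further genes known to be induced by interferon were called that no list held, among them APOL6, PARP12, HELZ2 and SAMHD1. APOL6, a lipid-binding protein, had the smallest adjusted p of these, with 18.4, 28.0 and 13.2 CPM against 62.0, 71.8 and 38.2 CPM (log2 fold change 1.52, SE 0.10, adjusted p = 5.38e-05).

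Among the genes that fell, EPHA3, SEMA3C and SEMA6A are guidance receptors and ligands, and they gave -1.06, -0.92 and -0.92. IGFBP5, which binds insulin-like growth factors, went from 936, 944 and 676 CPM to 204, 625 and 421 CPM (log2 fold change -1.14, SE 0.27, adjusted p = 0.0475). TMEM97 and ERG28, which are tied to sterols, fell by 0.64 and 0.68 on the log2 scale, while ABCA1, the pump that exports cholesterol, rose by 1.56. ABCG5, which encodes part of another sterol pump, fell by 1.12. ASNSP1, a pseudogene of ASNS, was called at 2.47, and its reads cannot be told from those of ASNS with certainty.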
